A study of Mus musculus with 2 samples.

Results

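The genes described here are 10 imprinted genes that the hypothalamus is known to express: Magel2, Ndn, Snrpn, Snhg14, Peg3, Meg3, Rian, Dlk1, Nnat and Gnas. They were listed by gene symbol, with earlier results of these data known, and all 10 were found, once each, among the 32285 genes of the count matrix. An imprinted gene is transcribed mainly or only from the chromosome inherited from the mother or from the father, and which parental copy is silent is set by DNA methylation laid down in the germ line. Many such genes sit in clusters that share a control region, so that a maternally expressed noncoding RNA and a paternally expressed protein-coding gene can be neighbours. In the hypothalamus they are known for their part in feeding, growth and hormone release, and loss of the paternal copies of the Magel2, Ndn, Snrpn and Snhg14 region causes Prader-Willi syndrome in humans, with hyperphagia. The mice were all C57BL/6J, so the counts do not tell the parental copies apart.

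The data were single-nucleus RNA counts from 6 male wild-type C57BL/6J mice aged 10 to 12 weeks, pooled into 1 gene expression library from the arcuate nucleus (ARC), with NeuN-sorted nuclei, a gate that selects neurons. A second library held the counts of 2 hashtags, antibody-bound barcodes that mark nuclei of different origin before pooling. Its entries are named ARC and PVH, and the samples' own labels name only the ARC. The groups below are therefore ARC-hashtag and PVH-hashtag nuclei. No mouse can be told from another and no group was replicated, so the comparisons have no test over animals. Values are unique molecular identifiers (UMIs, 1 per captured RNA molecule) summed over nuclei and given as CPM, counts per 1000000 UMIs of the group. The ranges in parentheses are exact 95% intervals that cover counting error only (Poisson for a level, binomial for a share or a ratio). A ratio was called past the fold at 1.5-fold or more with at least 30 UMIs in the groups together.

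Of 11409 barcodes, 10170 passed the filters, and the hashtags assigned 3767 to ARC and 3074 to PVH, left 2385 without a call and marked 944 as doublets. Gene UMIs and hashtag counts shared 11408 barcodes. The calls were weak: ARC-called nuclei had a median of 95 ARC and 77 PVH counts, and PVH-called nuclei 49 and 125. Each hashtag's nuclei were clustered on their own, which gave 13 neuronal clusters of 3738 ARC nuclei, 1 non-neuronal cluster of 29 ARC nuclei and 15 neuronal clusters of 3074 PVH nuclei. Median depth was 4832.5 UMIs in ARC neurons, 5039 in PVH neurons and 2562 in the non-neuronal cluster. Sim1, a transcription factor that defines PVH neurons, stood at 109 CPM (104 to 114) in PVH neurons and 10.6 CPM (9.21 to 12.2) in ARC neurons. Oxt, the oxytocin gene, gave a UMI in 92.7% of ARC neurons, 92.8% of PVH neurons and 86.2% of the non-neuronal nuclei. RNA free in the suspension would give such a spread over every group, but its source was not tested.

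The genes lie on 3 mouse chromosomes (GRCm38, GENCODE M21 annotation). On chromosome 7, Snhg14 (chr7:59307924-59975759, minus strand) is the long noncoding host of small nucleolar RNAs whose end runs antisense to the ubiquitin ligase gene Ube3a. Snrpn (chr7:59982495-60140219, minus strand), 6735 bases away, encodes a spliceosome protein of neurons, and Snurf and Gm38393 overlap it on the same strand. Ndn (chr7:62346569-62350262) and Magel2 (chr7:62377010-62381640), both on the plus strand, encode proteins of the MAGE family. Peg3 (chr7:6703892-6730431, minus strand), a zinc finger gene, is far from them on the same chromosome. On chromosome 12, Dlk1 (chr12:109452823-109463336), a membrane protein related to Notch ligands and expressed from the paternal copy, is followed on the plus strand by the maternally expressed noncoding RNAs Meg3 (chr12:109541001-109571726) and Rian (chr12:109603940-109661716). On chromosome 2, Nnat (chr2:157560078-157562522, plus strand) encodes a small membrane protein of the endoplasmic reticulum and lies within Blcap on the other strand. On the same chromosome Gnas (chr2:174284320-174346744, plus strand) encodes the stimulatory G protein alpha subunit together with other imprinted transcripts, all counted under 1 symbol. The sources used here do not say whether counting used strand, so it is not known here whether reads of a gene and of a gene opposite it were kept apart. This touches Nnat, Gnas, Snhg14, and Ndn and Magel2, which Gm32061 overlaps on the minus strand. Gm38393 overlaps Snhg14, as it does Snrpn, on the same strand, an overlap that strand does not resolve.

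The upstream sequences of the 4 genes whose levels differed most between clusters or moved together follow, as the 250 bases before the RefSeq start nearest the annotated one (GRCm38.p6), 5′ to 3′ along the gene. Capitals mark matches, on either strand, to 5 promoter motifs: the cyclic AMP response element TGACGTCA, the E-box CACGTG, the CCAAT box CCAAT, the GC box GGGCGG and the TATA box TATAAA, none of which contains another.
Meg3, chr12:109540746-109540995, plus strand: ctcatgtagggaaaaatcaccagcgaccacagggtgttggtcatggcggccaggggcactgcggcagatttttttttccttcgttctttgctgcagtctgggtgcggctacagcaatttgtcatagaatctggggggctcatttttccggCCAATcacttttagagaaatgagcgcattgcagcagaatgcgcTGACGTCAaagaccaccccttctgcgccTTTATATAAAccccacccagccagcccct
Rian, chr12:109603695-109603944, plus strand: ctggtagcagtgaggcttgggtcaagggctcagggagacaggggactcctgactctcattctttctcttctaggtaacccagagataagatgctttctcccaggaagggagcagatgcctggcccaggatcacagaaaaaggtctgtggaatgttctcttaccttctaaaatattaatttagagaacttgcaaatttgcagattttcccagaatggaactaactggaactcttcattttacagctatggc
Dlk1, chr12:109452573-109452822, plus strand: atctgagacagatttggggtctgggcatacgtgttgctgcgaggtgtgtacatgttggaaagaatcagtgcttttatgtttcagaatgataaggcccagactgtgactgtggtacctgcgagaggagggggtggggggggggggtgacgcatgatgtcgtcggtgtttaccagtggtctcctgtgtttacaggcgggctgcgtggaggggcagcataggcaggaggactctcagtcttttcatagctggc
Nnat, chr2:157559828-157560077, plus strand: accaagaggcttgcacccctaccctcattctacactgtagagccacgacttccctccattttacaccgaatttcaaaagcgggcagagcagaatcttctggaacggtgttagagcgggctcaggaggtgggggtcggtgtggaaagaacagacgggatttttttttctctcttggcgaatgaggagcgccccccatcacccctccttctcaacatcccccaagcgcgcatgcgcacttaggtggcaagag
The Meg3 window held 1 cyclic AMP response element, 1 CCAAT box and 2 overlapping TATA boxes, 1 on each strand, and the other 3 windows held no match. Over all 32851 RefSeq promoter windows of that length, 1.55% held the cyclic AMP response element, 33.8% the CCAAT box, 12.4% the TATA box, 32.7% the GC box and 6.02% the E-box. Peg3 was the other gene of the 10 with the cyclic AMP response element in its window.

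Meg3 and Rian are also the host transcripts of microRNAs, short RNAs that pair with messenger RNAs through the seed, bases 2 to 8. RefSeq places the hairpin of miR-770 and the mature miR-1906 inside Meg3 and the hairpins of miR-341, miR-1188 and miR-370 inside Rian, on the same strand. The mature sequences of the hairpins nearest the 3′ end of each host are given here with the seed in capitals.
mmu-miR-770-5p: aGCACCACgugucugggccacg
mmu-miR-770-3p: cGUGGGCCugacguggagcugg
mmu-miR-370-5p: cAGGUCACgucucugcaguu
mmu-miR-370-3p: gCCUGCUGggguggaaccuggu
No seed was shared among the 9 mature sequences inside the 2 hosts. Mature microRNAs are not captured by this assay, so the values below are those of the host transcripts.

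By UMIs, Meg3 was by far the most abundant of the 10, and Magel2 the scarcest. Summed over neurons, the 10 genes took 1.00% of ARC UMIs and 1.46% of PVH UMIs, of which Meg3 alone took 0.652% and 1.06%. It ranked 3 by UMIs among all genes on both sides. A median ARC neuron held 29 Meg3 UMIs and a median PVH neuron 52, with highest values of 184 and 220. Divided by kilobases of gene span, Meg3 (212 CPM per kilobase in ARC neurons) was followed by Nnat (123), Ndn (35.5), Gnas (18.6), Dlk1 (15.8), Peg3 (8.99), Rian (8.92), Magel2 (6.02), Snhg14 (1.22) and Snrpn (0.825). The span includes introns, and the 3′ capture of the assay does not scale with it for every gene. The order per kilobase is therefore not a ranking of abundance between the genes.

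Across all neurons, those with the PVH hashtag held more Meg3 and Nnat and less Dlk1 and Magel2 than those with the ARC hashtag. Meg3 stood at 6515 CPM (6479 to 6551) in ARC neurons and 10631 CPM (10581 to 10680.3) in PVH neurons, a ratio of 1.63-fold (1.62 to 1.64). Nnat stood at 300.2 CPM (293 to 308) and 477 CPM (467 to 488), a ratio of 1.59-fold (1.54 to 1.65). Dlk1 went the other way, with 166 CPM (159.9 to 171) in ARC neurons, 89.4 CPM (84.9 to 94.1) in PVH neurons and a ratio of 0.54-fold (0.507 to 0.574), so the adjacent Meg3 and Dlk1 differed in opposite directions. Magel2 stood at 27.9 CPM (25.6 to 30.3) and 18.3 CPM (16.4 to 20.5), a ratio of 0.658-fold (0.57 to 0.758).

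The other 6 genes did not pass the fold. Snrpn had a ratio of 1.33-fold (1.26 to 1.41) and Rian, the neighbour of Meg3, 1.26-fold (1.22 to 1.29). Gnas had 1.11-fold (1.09 to 1.13), Snhg14 1.07-fold (1.05 to 1.1), Peg3 1.07-fold (1.02 to 1.11) and Ndn 0.863-fold (0.813 to 0.916). Thus 2 of the 10 genes were past the fold upward and 2 downward, against 6.81% and 5.99% of the 17090 genes with enough UMIs, whose median log2 ratio was -0.04 (members 0.13). Mitochondrial RNA, which here marks material from outside the nucleus, took 0.0248% of UMIs in ARC neurons and 0.0423% in PVH neurons, and the nuclear RNA Malat1 75004.5 CPM and 80804 CPM; their part in the differences was not tested.

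The hashtag difference changed with the kind of neuron. Clusters were taken as GABAergic or glutamatergic where Slc32a1, the vesicular GABA transporter, or Slc17a6, a vesicular glutamate transporter, was at least 2-fold above the other, which left out 1 mixed cluster of each hashtag. Between GABAergic clusters, Meg3 had a ratio of 1.96-fold (1.94 to 1.99), Snrpn 1.74-fold (1.6 to 1.89), Dlk1 0.309-fold (0.275 to 0.347) and Magel2 0.541-fold (0.421 to 0.689), while Nnat was at 1.07-fold (1.00 to 1.14). Between glutamatergic clusters, Nnat alone was past the fold, at 1.92-fold (1.82 to 2.03), with Meg3 at 1.35-fold (1.33 to 1.36), Magel2 at 0.695-fold (0.553 to 0.877) and Dlk1 at 1.13-fold (1.01 to 1.27). The Dlk1 ratio therefore lay on opposite sides of 1 in the GABAergic and glutamatergic sets. In ARC neurons Dlk1 stood at 212 CPM (203 to 220.1) in GABAergic and 87.6 CPM (79.7 to 96.2) in glutamatergic clusters, and in PVH neurons at 65.4 CPM (58.6 to 72.9) and 99.1 CPM (93.1 to 105). The glutamatergic ARC level pools unlike clusters. Of its 444 UMIs, 332 came from 1 cluster, called POMC-like below, at 202 CPM, and the other glutamatergic ARC clusters stood at 25.3 to 37.4 CPM.

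When the nuclei of both hashtags were clustered together, 8 clusters held at least 20 nuclei of each, so that the hashtags could be compared between nuclei of like expression (a comparison added after the data were seen). Meg3 was higher in the PVH-hashtag nuclei in 8 of 8 clusters, from 1.12-fold to 1.48-fold with a median of 1.2-fold, every interval above 1 and none past the fold. In the dopaminergic-like cluster, Meg3 stood at 8982 CPM in 185 PVH nuclei and 6069.6 CPM in 320 ARC nuclei, and in the VMH-like cluster at 12051 CPM in 67 PVH nuclei and 10725 CPM in 192 ARC nuclei. Nnat was higher in 2 of 8 clusters, with a median of 0.852-fold, Dlk1 was higher in 2 of 8, with a median of 0.745-fold, and Magel2, with 0 ARC UMIs in 1 cluster, had a median of 1.15-fold with no interval that left out 1. The median ratios of Nnat and Magel2 thus lay on the other side of 1 from their ratios over all neurons, and that of Dlk1 on the same side, with a range of 0.469-fold to 5.8-fold, the last against 1 ARC UMI.

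**Figure D1:**
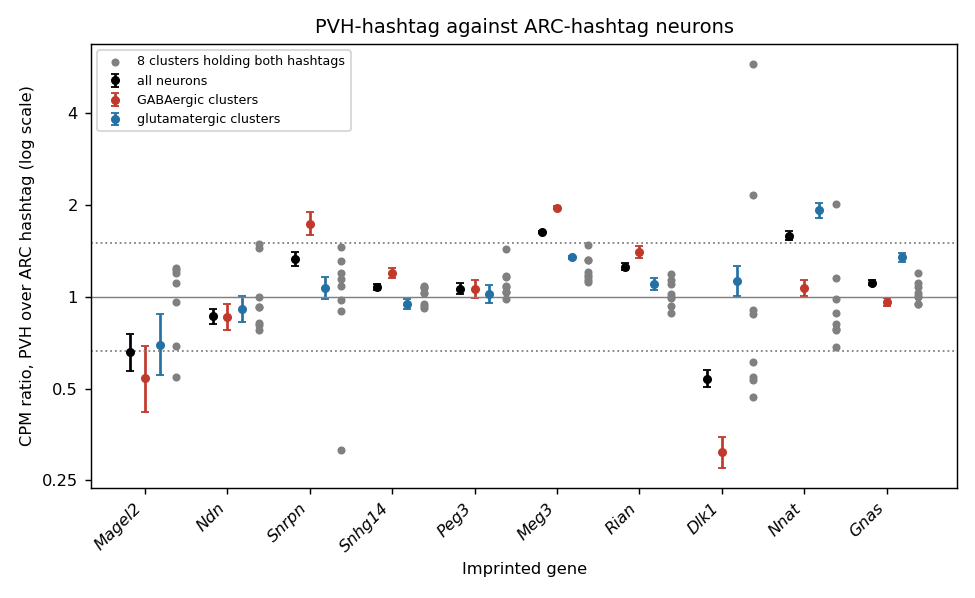
Ratio of CPM in PVH-hashtag over ARC-hashtag neurons for each of the 10 genes (log axis), over all neurons (black), GABAergic clusters (red) and glutamatergic clusters (blue), with exact 95% counting intervals; grey points are the 8 clusters that hold both hashtags, where a cluster with 0 UMIs on a side is not drawn, and dotted lines mark 1.5-fold. Meg3 lies above 1 in every series, from 1.12 in the lowest shared cluster to 1.96 between GABAergic clusters, while Dlk1 falls on both sides of 1.

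Across the 28 neuron clusters, Dlk1 and Nnat varied most, and Snhg14, Peg3 and Rian passed the fold in none. A cluster was called by a class, as X-like, where at least 3 markers of a list, the list's first marker among them, were at 1.5-fold or more for 1 class, and no non-neuronal list met this with a marker among the cluster's 10 leading genes: AGRP-like, POMC-like, SST-like, KNDy-like, GHRH-like, VMH-like and dopaminergic-like clusters with the ARC hashtag, and 1 dopaminergic-like and 7 Sim1-like clusters with the PVH hashtag. The PVH dopaminergic-like cluster did not have Th, the first enzyme of dopamine synthesis, among its passed markers, and the clusters with no name keep their numbers. Each cluster was compared with the other neurons of its hashtag. Of 130 pairs of a member and an ARC cluster, 6 were past the fold upward and 10 downward, and of 150 PVH pairs 9 and 18, which is 4.62% and 7.69% for ARC and 6% and 12% for PVH. Over all genes with at least 30 UMIs the shares were 8.52% and 16.5% for ARC and 9.19% and 18.1% for PVH. Over genes with at least 300 UMIs, a minimum that all 10 members met, they were 4%, 8.17%, 4.2% and 9.27% in the same order. Meg3 in ARC nuclei and Dlk1 and Nnat in both were among the variable genes that built the clusters, so their differences between clusters are a description.

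**Figure D2:**
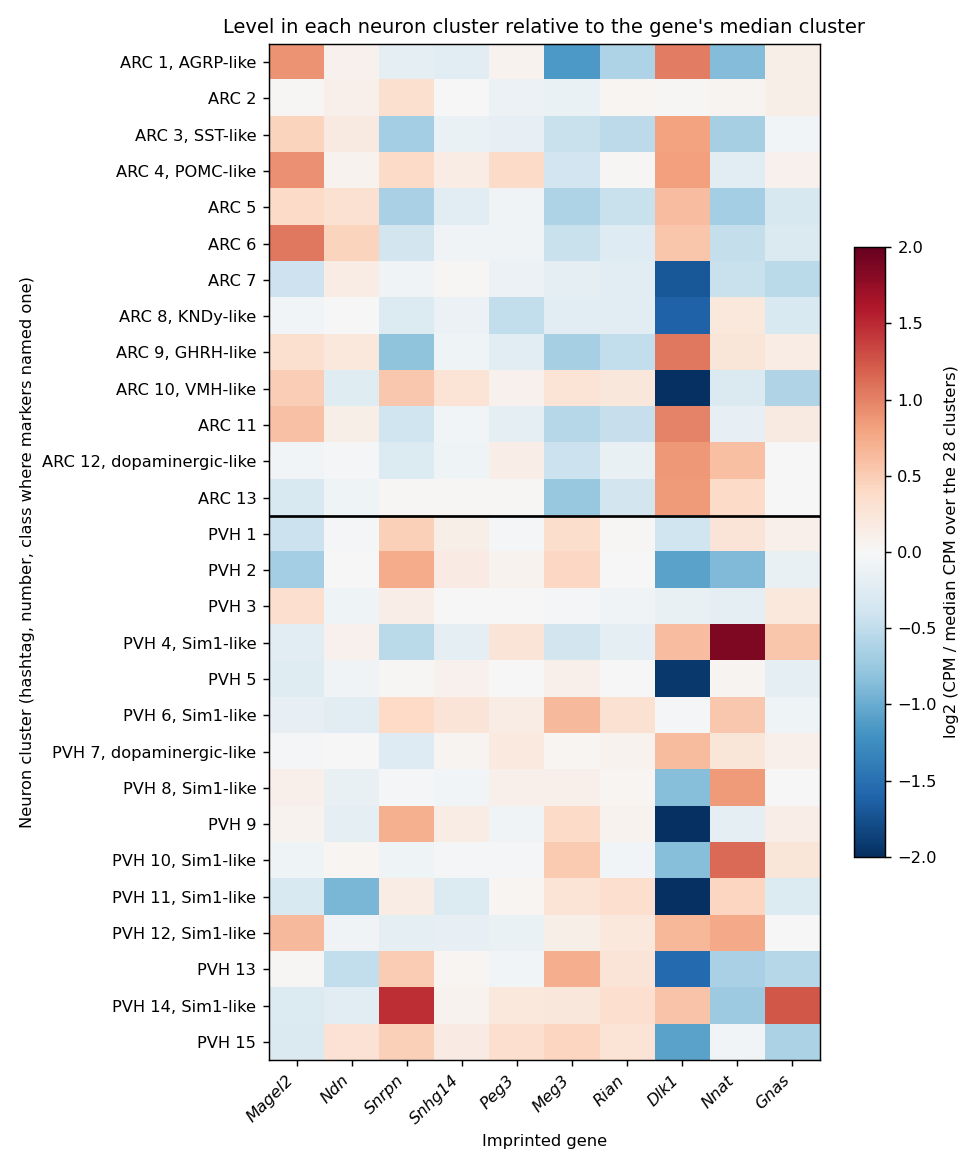
Level of each of the 10 genes (columns) in each of the 28 neuron clusters (rows, ARC hashtag above the line and PVH hashtag below), as log2 of CPM over the gene's median across clusters; red is higher and blue lower, and the colour saturates at 2. Dlk1 runs from 18.6 to 238 CPM and Nnat to 1284 CPM, while the Snhg14 and Peg3 columns stay near white.

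Meg3 was lowest in AGRP-like neurons, the fasting-activated feeding neurons of the ARC, and highest among ARC clusters in VMH-like neurons. Its level was 4029 CPM (3965 to 4094) in the AGRP-like cluster, 0.567-fold (0.558 to 0.577) of the other ARC neurons, and 10699 CPM (10507 to 10893.5) in the VMH-like cluster, 1.71-fold (1.68 to 1.74). The latter, a log2 ratio of 0.77, was 0.41 when both hashtags were clustered together and no longer past the fold. POMC-like neurons, which act against AGRP neurons on feeding, stood at 6845 CPM (6719 to 6973), SST-like at 6513 CPM (6389.9 to 6639), KNDy-like at 7667 CPM (7500.2 to 7837), GHRH-like at 5629.8 CPM (5489 to 5773) and dopaminergic-like at 6591 CPM (6427 to 6757). The AGRP-like value lies below every other cluster of either hashtag, and the dopaminergic-like interval overlapped those of SST-like and POMC-like neurons. On the PVH side the level ran from 6881 CPM (6746 to 7017) in the Sim1-like PVH cluster 4 to 14702.5 CPM (14395 to 15015) in an unnamed glutamatergic cluster (PVH cluster 13), and 8 of 15 PVH levels lay above every ARC level. In the order of the 28 levels, the intervals of 16 of 27 neighbouring pairs overlapped.

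Rian, the noncoding RNA downstream of Meg3, had a like pattern over a narrower range. It was lowest in the same AGRP-like cluster, at 404 CPM (383 to 425), and highest among ARC clusters in the same VMH-like cluster, at 720.5 CPM (671 to 772), with no ARC or PVH cluster past the fold. PVH clusters ran from 546 to 779 CPM, and the intervals of all 27 neighbouring pairs in the order overlapped.

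Dlk1, the paternally expressed gene at the other end of that locus, had the widest range of the 10, with the highest ARC cluster at 9.38 times the lowest and the highest PVH cluster at 9.81 times. In ARC nuclei it stood at 233 CPM (218 to 249) in AGRP-like, 238 CPM (209 to 269) in GHRH-like, 209 CPM (181 to 241) in dopaminergic-like, 202 CPM (181 to 225) in POMC-like and 199.8 CPM (179 to 223) in SST-like neurons, whose intervals overlap in order of level. It stood at 25.3 CPM (16.8 to 36.6) in VMH-like neurons, 35.3 CPM (25.8 to 47.3) in the unnamed glutamatergic ARC cluster 7 and 37.4 CPM (26.6 to 51.1) in KNDy-like neurons, the kisspeptin neurons of the ARC. These 3 clusters were 0.146-fold (0.0966 to 0.211), 0.202-fold (0.147 to 0.271) and 0.216-fold (0.153 to 0.296) of the other ARC neurons and overlapped no other ARC cluster. Among PVH clusters the lowest level was 18.6 CPM (10.4 to 30.7), in the Sim1-like cluster marked by Oxt, and the Sim1-like cluster marked by Avp, the vasopressin gene, held 169.8 CPM (137 to 208). The 3 remaining PVH clusters past the fold upward were the Sim1-like clusters 4 and 12 and the dopaminergic-like cluster, at 176, 183 and 179 CPM, and 6 of 15 were past it downward. Marked by Oxt or Avp means here only that the gene was among the cluster's passed markers. Neither was among its cluster's 10 leading genes, and Oxt, Avp and Trh also passed in the non-neuronal ARC cluster. Whether the 2 clusters are oxytocin or vasopressin neurons was not tested.

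Nnat was highest by a wide margin in PVH cluster 4, 1 of 2 Sim1-like clusters with Crh, the corticotropin-releasing hormone gene, among their passed markers. It stood there at 1284 CPM (1226 to 1343), 3.2-fold (3.04 to 3.38) of the other PVH neurons. Next came Sim1-like PVH cluster 10 at 774 CPM (712 to 840.1), cluster 8 at 635 CPM (589 to 683) and cluster 12 at 595 CPM (533 to 661), the last 2 with Trh among their markers, and these 4 levels lay above every ARC cluster, although the interval of cluster 12 overlapped that of ARC dopaminergic-like neurons. The other 3 Sim1-like clusters were lower. Cluster 6, the other with Crh among its passed markers, held 510.0 CPM (471 to 551), 1.07-fold (0.989 to 1.17) of the other PVH neurons, the Oxt-marked cluster held 473 CPM (426 to 523) and the Avp-marked cluster 212 CPM (175 to 255). Taken as 1 group of 1106 nuclei, Sim1-like neurons held 713 CPM (693 to 734), 2.17-fold (2.08 to 2.27) of the other PVH neurons. In ARC nuclei Nnat was highest in dopaminergic-like neurons, at 536 CPM (489.8 to 585), a log2 ratio of 0.89 to the other ARC neurons that was 0.30 when both hashtags were clustered together and no longer past the fold. Next was ARC cluster 13, with Th among its passed markers, at 459.9 CPM (410.4 to 514), and the lowest level was that of AGRP-like neurons, at 193 CPM (179 to 207).

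Gnas and Snrpn were both highest in the Avp-marked Sim1-like cluster of 88 nuclei. Gnas stood there at 2824 CPM (2684 to 2969), 2.28-fold (2.17 to 2.41) of the other PVH neurons, and Snrpn at 388 CPM (337 to 444), 2.33-fold (2.02 to 2.68). With both hashtags clustered together, a Sim1-like cluster also led by Pla2r1 held 86 PVH and 34 ARC nuclei. Gnas stood at 2887 CPM in its PVH and 2404 CPM in its ARC nuclei, and Snrpn at 397 and 367 CPM. The second level of Gnas was 1762 CPM (1695 to 1832), in PVH cluster 4, and the Oxt-marked cluster held 986 CPM (919 to 1057). Snrpn was lowest among PVH clusters in cluster 4, at 95.6 CPM (80.4 to 113), and lowest of all in GHRH-like ARC neurons, at 79.5 CPM (63.6 to 98.2). In ARC neurons Gnas passed the fold in no cluster and ran from 792 CPM (740.4 to 846) in VMH-like neurons to 1355 CPM (1282 to 1429.8) in the unnamed cluster 11.

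Magel2 was highest in ARC neurons, with levels that few UMIs support. It stood at 41.4 CPM (31 to 54.3) in the unnamed GABAergic ARC cluster 6, 37.7 CPM (28.9 to 48.3) in POMC-like and 37.1 CPM (31.2 to 43.9) in AGRP-like neurons, on 52, 62 and 138 UMIs, and these 3 levels lay above every PVH cluster, although their intervals overlapped that of PVH cluster 12. It was lowest among ARC clusters in cluster 7, at 14.9 CPM (8.98 to 23.3), and ran from 12.4 to 31.3 CPM over PVH clusters. Ndn, its neighbour, passed the fold in 1 of 28 clusters, the Oxt-marked PVH cluster, at 64.5 CPM (48.2 to 84.6) and 0.557-fold (0.415 to 0.734). Snhg14 and Peg3 passed it in none, with ranges of 705 to 1023 CPM and 172 to 315 CPM. For Magel2, Ndn, Snhg14 and Peg3, the intervals of all 27 neighbouring pairs in the order overlapped.

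ARC cluster 2, of 544 nuclei, passed markers of the Sim1 list (Sim1, Pou3f2, Avp, Crh and Ntng1) and had Sim1 among its leading genes. It kept its number because the oligodendrocyte list also met the naming rule. The part of these nuclei in the PVH over ARC ratios was not tested. The 2 clusters numbered 2, ARC cluster 2 and PVH cluster 2, both held oligodendrocyte markers, whose summed level was 397 and 611 CPM against 44.4 to 167 CPM in the other 26. Without the 17 and 10 nuclei that clustered with oligodendrocytes in the clustering of both hashtags, Meg3 moved from 8086 to 8268 CPM in ARC cluster 2 and from 11840.3 to 12186 CPM in PVH cluster 2.

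Over the 28 clusters, the levels of Meg3 and Rian went together and Dlk1 went against both. Pearson's r of log2(CPM + 1) was 0.86 for Meg3 and Rian, -0.65 for Meg3 and Dlk1 and -0.52 for Rian and Dlk1. Within the 13 ARC clusters the values were 0.84, -0.78 and -0.59, and within the 15 PVH clusters 0.55, -0.42 and -0.13. Snrpn also went with Rian (r = 0.73) and with Snhg14 (r = 0.67), its neighbour. Magel2 and Ndn, neighbours as well, had r = 0.34, with 0.37 in ARC and -0.01 in PVH clusters. Values of this size were not particular to neighbours. Among members on different chromosomes, Dlk1 and Gnas had r = 0.82 and Snhg14 and Rian 0.80 within ARC clusters. Snrpn and Nnat had -0.79 within PVH clusters. The clusters share 1 library and its free RNA, and CPM values share a total, so these r values are descriptions. With the clusters' median depth, Rian had r = 0.47 in ARC and 0.71 in PVH clusters, Meg3 0.19 and 0.43, and Dlk1 -0.04 and -0.39, and over the 10 members the values ran up to 0.71 and down to -0.75 (Ndn, PVH). The part of depth in these patterns was not tested.

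**Figure D3:**
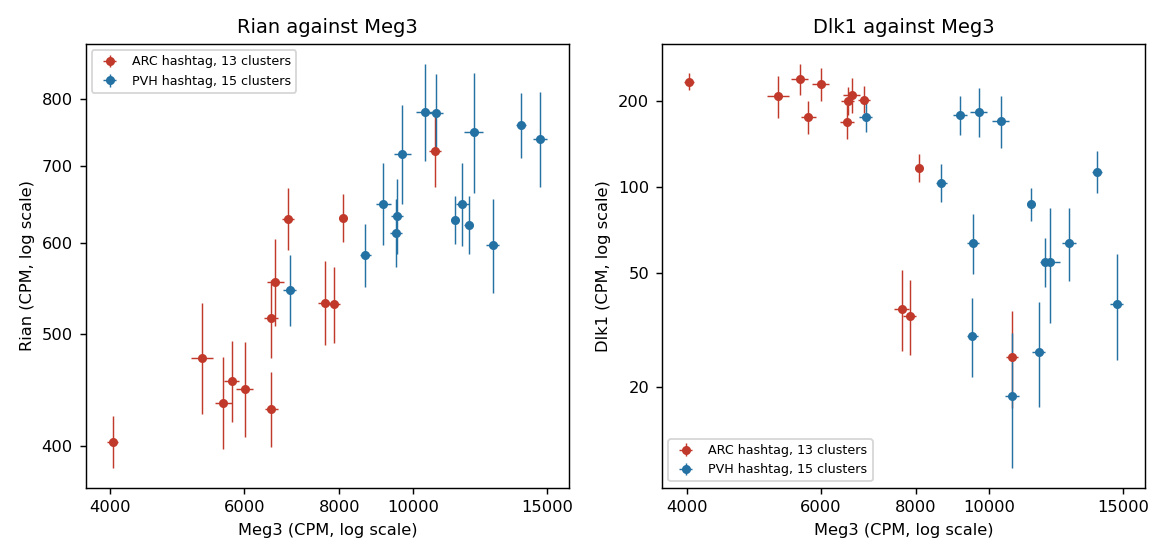
Rian (left) and Dlk1 (right) against Meg3 in CPM (log axes), 1 point per neuron cluster with exact 95% counting intervals, in red for the 13 ARC and in blue for the 15 PVH clusters. Rian rises with Meg3 (r = 0.86), and Dlk1 is spread from 18.6 to 238 CPM and lower at high Meg3 (r = -0.65).

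For each member, the 3 genes most alike in pattern were found among the 11161 other genes with at least 300 UMIs, by the same r. For Meg3 they were Rian (r = 0.86), B830012L14Rik (0.86), a noncoding RNA on the same strand of chromosome 12, and A230006K03Rik (0.84), a noncoding RNA of chromosome 7. For Rian they were Mirg (0.93), B830012L14Rik (0.87) and Meg3 (0.86), all of them on the plus strand of the same locus. Snhg14 was most like Ube3a (0.80) and Gnas most like Gm20721 (0.85), and each of these overlaps the member on the opposite strand. Snrpn was most like Mirg (0.78), Dlk1 like Slain1 (0.74), Nnat like Kiz (0.70), Peg3 like Acsl1 (0.69), Ndn like Zkscan1 (0.83) and Magel2 like Gm11837 (0.68).

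Non-neuronal nuclei, most of which the NeuN sort removes, were few, and in those with astrocyte and tanycyte markers Nnat was far above its level in neurons. ARC cluster 14 held 29 nuclei that passed the astrocyte and tanycyte lists. The summed level of the 8 astrocyte markers was 3770.0 CPM there and 41.8 CPM in ARC neurons, and that of the 5 neuron markers 256 and 2256 CPM. Of the 6 oligodendrocyte markers, Mobp, Mag, Mog and St18 were at 0 there, and the 6 tanycyte markers summed to 3083 CPM against 108 CPM. Nnat stood at 3654 CPM (3261 to 4081) against 300.2 CPM (293 to 308) in ARC neurons, a ratio of 12.2-fold (10.8 to 13.6). Of the 29 nuclei, 26 held a Nnat UMI and 18 held at least 5, with a median of 7 and a highest value of 47 UMIs, which is 15% of the cluster's Nnat UMIs.

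The noncoding RNAs were lower in these nuclei. Snhg14 stood at 139.6 CPM (72.1 to 244), a ratio of 0.171-fold (0.0884 to 0.299), Rian at 186 CPM (106 to 302), a ratio of 0.361-fold (0.206 to 0.587), and Meg3 at 2897 CPM (2549 to 3280.4), a ratio of 0.445-fold (0.391 to 0.504). Snrpn (0.447-fold, 0.145 to 1.05) and Dlk1 (0.632-fold, 0.289 to 1.2) were past the fold downward and Ndn (1.51-fold, 0.877 to 2.42) upward on 5, 9 and 17 UMIs, with intervals that include 1, and Gnas (0.743-fold, 0.583 to 0.934) and Peg3 (1.12-fold, 0.711 to 1.69) were not past it. Magel2 had 0 UMIs among the cluster's 85942, which allows up to 34.9 CPM (3 counts), above its level in neurons, so a difference was not detectable at this depth. Of the 9 members with a UMI, 5 were past the fold downward, 3 of them with an interval below 1, and 2 upward, against 48.3% and 23.7% of 15539 genes, with genes at 0 UMIs counted as lower. The median log2 ratio of all genes was -0.51. That of all 10 members was -0.91 with Magel2, at 0 UMIs, ranked lowest, and -0.54 with Magel2 at its limit.

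Oligodendrocyte-like nuclei, seen as a cluster when both hashtags were clustered together (29 nuclei, 157976 UMIs, a comparison added after the data were seen), did not share the high Nnat. Nnat stood there at 177 CPM (118 to 256) against 381 CPM (375 to 388) in neurons, a ratio of 0.465-fold (0.309 to 0.673), whereas the astrocyte and tanycyte cluster of the same clustering, 36 nuclei, held 3919 CPM (3542 to 4325), a ratio of 10.3-fold (9.28 to 11.4). Dlk1 was nearly undetected in oligodendrocyte-like nuclei, with 1 UMI and a ratio of 0.0484-fold (0.00122 to 0.27). Snhg14 (0.217-fold, 0.145 to 0.311), Meg3 (0.289-fold, 0.261 to 0.32), Rian (0.306-fold, 0.204 to 0.443), Peg3 (0.411-fold, 0.235 to 0.668), Gnas (0.425-fold, 0.338 to 0.528) and Snrpn (0.589-fold, 0.322 to 0.99) were lower as well, and Ndn was at 0.927-fold (0.549 to 1.47). Magel2 had 0 UMIs, which allows up to 19 CPM, against 23.6 CPM in neurons. Of the 9 members with a UMI, 8 were past the fold downward, each with an interval below 1, and 0 upward, against 54.2% and 17.9% of 17081 genes, with genes at 0 UMIs counted as lower. The median log2 ratio of all genes was -0.78. That of all 10 members was -1.49 with Magel2 ranked lowest, and -1.26 with Magel2 at its limit. An oligodendrocyte-like cluster of 75 nuclei also formed when all filtered nuclei were clustered without the hashtag step, with Nnat at 244 CPM (194 to 303), Dlk1 at 17.9 CPM (6.55 to 38.9) and Magel2 at 5.95 CPM (0.721 to 21.5) on 2 UMIs.

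**Figure D4:**
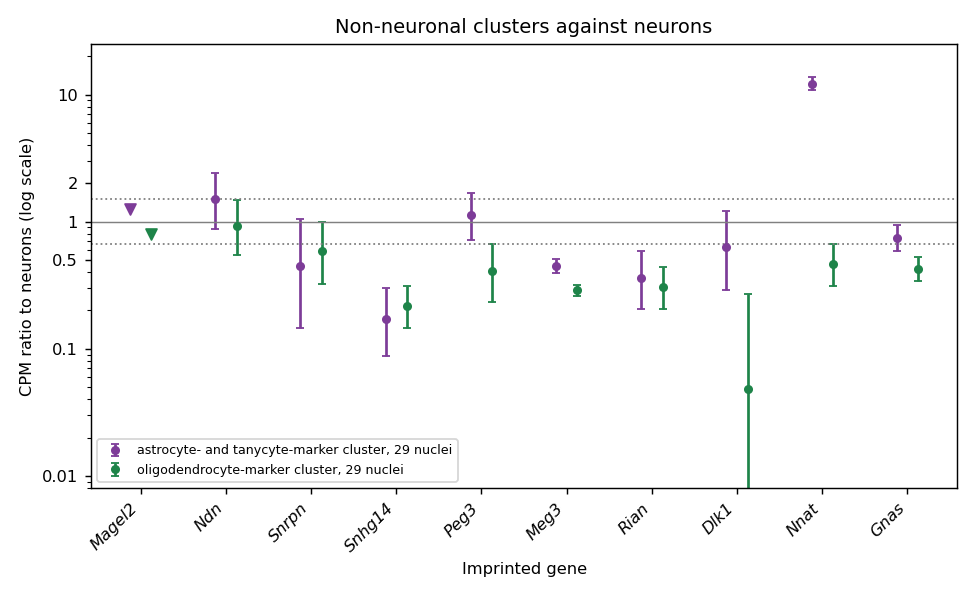
Ratio of CPM in non-neuronal over neuronal nuclei for each gene (log axis), for the astrocyte- and tanycyte-marker cluster of ARC nuclei against ARC neurons (purple) and the oligodendrocyte-marker cluster against neurons of both hashtags (green), with exact 95% counting intervals; triangles give the upper limit that 0 UMIs allows (3 counts), and dotted lines mark 1.5-fold. Nnat lies at 12.2 in the first cluster and 0.465 in the second.

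At equal depth the shares of nuclei with a UMI of Meg3, Nnat and Snhg14 followed the order of their levels. After each nucleus was thinned to 1000 UMIs, Meg3 was found in 98% (97.5 to 98.4) of ARC neurons, 99.7% (99.5 to 99.9) of PVH neurons, 69% (49.2 to 84.7) of the astrocyte- and tanycyte-marker nuclei and 44.8% (26.4 to 64.3) of the oligodendrocyte-marker nuclei. Nnat was found in 24.2% (22.8 to 25.6), 31.9% (30.2 to 33.5), 75.9% (56.5 to 89.7) and 3.45% (0.0873 to 17.8) in the same order, and Snhg14 in 54.9% (53.3 to 56.5), 57.7% (56 to 59.5), 6.9% (0.846 to 22.8) and 10.3% (2.19 to 27.4). Before thinning, at median depths of 4832.5, 5039, 2562 and 4750 UMIs, the Nnat shares were 67.7%, 76.3%, 89.7% and 51.7%. Agrp, a neuropeptide gene that these cell types are not known to express, was found after thinning in 27.6% (12.7 to 47.2) of the astrocyte- and tanycyte-marker nuclei and 13.8% (3.89 to 31.7) of the oligodendrocyte-marker nuclei. Whether that share comes from free Agrp RNA or from nuclei caught together was not tested, and the free RNA of the members was not measured on its own.

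**Figure D5:**
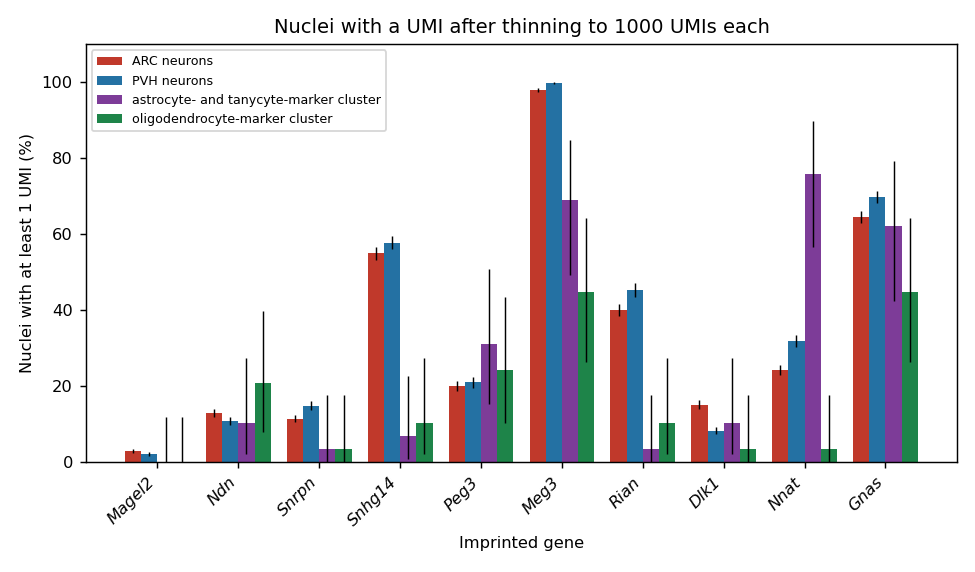
Percent of nuclei with at least 1 UMI of each gene after every nucleus was thinned to 1000 UMIs, for ARC neurons, PVH neurons, the astrocyte- and tanycyte-marker cluster and the oligodendrocyte-marker cluster, with exact 95% binomial intervals. Nnat was found in 75.9% of the astrocyte- and tanycyte-marker nuclei and 24.2% of ARC neurons, and Snhg14 in 6.9% and 54.9%.

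A list of 52 other imprinted genes, 51 of them found by symbol in the matrix, gave the setting for the 10. Nespas, which overlaps Gnas, was not found by symbol and was left out, although its gene identifier is among those counted. Between the hashtags, 0 of 39 with enough UMIs were past the fold upward in PVH neurons and 6 downward, led by Plagl1 (0.279-fold, 0.254 to 0.307), a zinc finger gene, Asb4 (0.318-fold, 0.284 to 0.356) and Atp10a (0.362-fold, 0.323 to 0.405). Plagl1 stood at 113 CPM in ARC neurons and 31.6 CPM in PVH neurons. In the astrocyte- and tanycyte-marker nuclei, 26 of 37 were past the fold downward and 4 upward, with Blcap, the gene that surrounds Nnat on the other strand, at 3.13-fold (1.5 to 5.79) on 10 UMIs and Usp29, a gene beside Peg3, at 0.197-fold (0.124 to 0.299). In oligodendrocyte-like nuclei, 31 of 39 were past it downward and 3 upward, the latter with Gatm, an enzyme of creatine synthesis, at 209 CPM against 5.25 CPM in neurons, a ratio of 39.8-fold (26.6 to 57.8). Over the clusters, 33 of 481 ARC pairs were past the fold upward and 72 downward (6.86% and 15%), and 39 and 92 of 555 PVH pairs (7.03% and 16.6%). These shares lie under those of all genes with at least 30 UMIs. They lie above those of genes with at least 300 UMIs (4%, 8.17%, 4.2% and 9.27%), a minimum that some of the listed genes did not meet. Calcr, the calcitonin receptor gene, was past the fold in 3 ARC clusters upward and 9 downward, and Plagl1 in 2 and 9. Th, in 3 and 9, and Ddc, in 2 and 6, were also on the dopaminergic marker list that named clusters.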

How the data were processed

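Per the labels, nuclei of 6 mice were sorted and run as 1 10x library with a hashtag library. The deposited values are raw counts (UMIs per gene and barcode, and counts per hashtag) that the authors made with Cell Ranger on mm10, version 5.0 in the submitters' processing notes and 4.0.0 in the matrix header, with Seurat 4 named for later steps. The sources used here do not say whether intronic reads were counted.

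From these counts, nuclei with 800 to 5000 genes, at most 12000 UMIs and at most 1% mitochondrial UMIs were kept. Hashtags were called with HTODemux (Seurat 5.3.0, positive quantile 0.8), and nuclei called doublets or without a call were left out, with no other doublet caller. Each hashtag's nuclei were clustered (2000 variable genes, 30 components, 20 neighbours, Leiden resolution 0.55). A neuronal cluster was named where at least 3 markers of a list, including its first marker, had at least 3 UMIs and 1.5-fold or more for 1 class, and no non-neuronal list met this with a marker among the 10 leading genes. Depth was 19406716 UMIs in ARC neurons, 16732895 in PVH neurons and 85942 in the ARC non-neuronal cluster. Intervals (scipy 1.17.1) cover counting error only, and none spans mice. For thinned shares, 5 nuclei under 1000 UMIs were left out. The scripts were tested on simulated data.

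The members and gene lists were chosen with earlier results of these data known. The text names all members, the leading other imprinted genes and the 3 genes most alike, or the first of them. The split by transmitter needed a 2-fold difference, a limit chosen after the data were seen. Alternative hashtag, filter, clustering, depth and fold settings were run.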

Additional observations from a re-analysis of the deposited data

How the results depend on the processing

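Of 250 member values past the fold, counted over alternatives, 25 were no longer past 1.5-fold, and 4 changed sign. The 250 include the settings of a fold of 2 and of no minimum of UMIs. These leave each ratio as it was, so they could lose none in this count, and the 25 are no measure of stability under them. For PVH over ARC neurons, 2 genes higher became 1 with no upper limits, with at most 5% mitochondrial UMIs or in glutamatergic clusters, and 0 at a fold of 2. The 2 lower became 1 with at most 5% mitochondrial UMIs or thinned nuclei, and 0 at a fold of 2 or in glutamatergic clusters. There the log2 ratio of Dlk1 turned from -0.89 to 0.18. Over clusters that hold both hashtags, a comparison added after seeing the data, the median log2 ratio of Magel2 turned from -0.60 to 0.20 and that of Nnat from 0.67 to -0.23. Of member and cluster pairs, 5.36% were higher, against 8.21% with thinned nuclei, 8.57% with both hashtags clustered together and 2.14% at a fold of 2, and 10% were lower, against 3.57% at a fold of 2. In VMH-like neurons the log2 ratio of Meg3 was 0.77, and 0.41 when both hashtags were clustered together, and in dopaminergic-like neurons that of Nnat was 0.89, and 0.30. In the non-neuronal cluster, 2 genes higher became 1 with imprinted genes left out of the variable genes, at resolution 1.2 or at a fold of 2, and the log2 ratio of Ndn turned from 0.59 to -0.44 in thinned nuclei. That of Nnat was 3.61, and 3.13 when all filtered nuclei were clustered without the hashtag step. The causes were not tested. No non-neuronal cluster formed at a positive quantile of 0.99, without upper limits or with at most 5% mitochondrial UMIs, so these gave no value. No paired analysis was possible because the study holds 1 pooled gene expression library, and no replicate could be left out. Depth limits Magel2 and the 29-nucleus clusters most.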
